A study of Mus musculus with 8 samples.

Results

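Glycolytic enzymes and pyruvate dehydrogenase kinase 1 were measured in cells named mouse aortic endothelial cells by the labels, on 4 Affymetrix arrays of subconfluent cultures and 4 arrays of confluent cultures. The genes are Hk1, Hk2, Pfkl, Aldoa, Tpi1, Pgk1, Pgam1, Pkm, Ldha and Pdk1. They were read by the 13 probe sets, of 12488 on the array, whose annotation gave exactly 1 of these 10 symbols. Subconfluent cells covered under 50% of the dish, and confluent cells formed a mature monolayer. Every sample was extracted from the same number of cells. The samples of each group carry the experiment numbers 1 to 4, and the labels name no strain, passage or medium. The comparison asks which transcripts differ between cells with free space around them and cells that have filled the dish. Values are signals, a linear measure scaled on each array to a common target of 500, with array medians from 169 to 187.

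Several facts of the arrays bear on the results below. The factors by which the arrays had been scaled ran from 3.05 to 13.3 in subconfluent and from 3.56 to 8.99 in confluent samples. Defining endothelial markers were near 0 or dim. Of 14 endothelial markers on the array 2 reached a mean signal of 200, and Cdh5, the cadherin of endothelial junctions, had signals of 5.50 to 18.1 in subconfluent and 6.90 to 29.5 in confluent samples. Pecam1, a surface protein of endothelial cells, had 99.0 to 147.2 in subconfluent and 50.1 to 163.3 in confluent samples, and Kdr, the main VEGF receptor, had 21.7 to 203.6 in subconfluent and 19.7 to 194.5 in confluent samples. The 14 markers summed to between 4686 and 6151 in subconfluent and between 4173 and 5134 in confluent samples, and 0 of the 2 tested passed (0 at an unadjusted p under 0.05 in limma). Those 2, named after their values were seen, were Efnb2 and Eng, with mean signals of 3576 and 832. They made up most of the sum. Of 13 fibroblast and pericyte markers 8 reached a mean signal of 200. The signals of the 13 summed to between 26456 and 40214 in subconfluent and between 54703 and 80733 in confluent samples. Of the 8 tested, 4 fell, Col1a2, Col3a1, Dcn and Lum. Lum averaged 153 in subconfluent samples (85.0 to 262.6), below 200, and had 542.1 to 6129 in confluent samples. Lum therefore entered the test only through the confluent samples, where it is high. The matrix gene Col3a1 fell by 1.31 on the log2 scale (adjusted p = 0.0356), while Col1a1, at -0.39, did not pass (adjusted p = 0.280, or 0.0221 with the experiment number as a block). With that block 6 of the 8 fell, Col1a1 and Pdgfra among them. Col1a1, Col1a2 and Dcn made up most of the sum. Of the 8 differences 7 were negative and 1 positive, that of Fbln1 (0.14, adjusted p = 0.646 in limma). Of 8 smooth muscle markers 4 were tested and 1 fell, Mylk, while Acta2 was 1.14 (adjusted p = 0.228, or 0.0172 with the block) and Tagln 1.47 (adjusted p = 0.108, or 0.0102 with the block). These 8 summed to between 2323 and 10723 in subconfluent and between 3606 and 5570 in confluent samples. Col1a2, Dcn, Lum, Pdgfra, Fbln1 and Mylk are named after their values were seen. Of 10 macrophage markers 1, of 8 lymphocyte markers 1, of 8 skeletal and cardiac muscle markers 2, of 8 epithelial and mesothelial markers 2 and of 3 red blood cell markers 0 were tested, and none of these passed in limma (1, 0, 0, 1 and 0 at an unadjusted p under 0.05). With the block the macrophage marker Cd14 (adjusted p = 0.0228) and the mesothelial marker Upk3b (adjusted p = 0.0271) passed, both lower in subconfluent cells and both named after their values were seen. In these bulk samples fewer cells of a type and less RNA per cell cannot be told apart. The 3 prime to 5 prime signal ratio of the Gapdh control probe sets, a measure of RNA integrity, was 0.801 to 0.833 in subconfluent and 0.781 to 0.851 in confluent samples, and the groups overlapped.

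Glycolysis splits glucose into pyruvate in the cytosol. Hexokinases trap glucose as a phosphate, phosphofructokinase commits it to breakdown, and the later enzymes of the pathway recover ATP. Pyruvate then either enters mitochondria through pyruvate dehydrogenase or is reduced to lactate by lactate dehydrogenase. Pyruvate dehydrogenase kinases phosphorylate pyruvate dehydrogenase and switch it off. Endothelial cells are known to draw most of their ATP from glycolysis, and the transcription factors HIF1 and MYC are known inducers of many of these genes.

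The promoters of Pdk1, Ldha and Pgam1 are shown because, with each gene read by its brightest probe set, these are the genes with an unadjusted p under 0.05 between the groups. Each sequence is the 250 bases before the most upstream transcription start in RefSeq on build GRCm38.p6. Capitals mark the core letters of the HIF1 site, ACGTG or GCGTG, on either strand.
Pdk1, chr2:71872974-71873223, plus strand: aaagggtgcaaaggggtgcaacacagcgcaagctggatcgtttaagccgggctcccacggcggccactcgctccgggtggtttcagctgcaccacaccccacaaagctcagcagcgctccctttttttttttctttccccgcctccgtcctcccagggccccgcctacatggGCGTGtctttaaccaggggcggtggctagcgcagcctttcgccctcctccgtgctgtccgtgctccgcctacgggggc
Ldha, chr7:46845554-46845803, plus strand: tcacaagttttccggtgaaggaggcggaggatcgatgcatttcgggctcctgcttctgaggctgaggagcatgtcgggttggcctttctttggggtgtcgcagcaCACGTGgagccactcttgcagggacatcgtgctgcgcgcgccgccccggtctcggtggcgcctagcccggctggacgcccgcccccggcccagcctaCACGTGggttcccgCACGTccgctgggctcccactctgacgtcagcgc
Pgam1, chr19:41911621-41911870, plus strand: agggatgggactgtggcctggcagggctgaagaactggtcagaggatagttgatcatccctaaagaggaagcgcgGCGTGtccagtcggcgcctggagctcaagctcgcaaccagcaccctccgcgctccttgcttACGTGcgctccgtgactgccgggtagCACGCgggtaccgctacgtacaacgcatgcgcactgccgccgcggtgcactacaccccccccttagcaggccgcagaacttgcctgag
The Pdk1 window held a single match, 78 bases before the start. The Ldha window held 3 places, of which those at 145 and 48 bases before the start read CACGTG. Those letters are also the core of the MYC site, so the motifs overlap at these places. The Pgam1 window held 3 places, at 175, 114 and 88 bases. Over all starts in RefSeq, 11 of the 16 windows of the 10 genes held ACGTG or GCGTG, against 38.6% of all 32851 windows of the same length. Windows 2 and 3 of Aldoa overlapped and shared the same match, so the 11 windows are not separate promoters. For CACGTG alone it was 1 of the 16 windows, that of Ldha, against 6.02% of all windows. Tpi1 had no match in its window. A match is a description of letters and says nothing of binding in these cells.

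Of the 10 genes, 1 was lower in subconfluent cells, Pdk1, and 0 were higher, at a limma adjusted p under 0.05 over all 6007 tested probe sets. In the same test 4.06% of all probe sets were lower and 2.75% higher, 6.81% in either direction. At an unadjusted p under 0.05 the counts were 1 lower and 2 higher, Ldha and Pgam1. At that level 12.8% of all tested probe sets were lower and 13.2% higher, 25.9% in either direction, so 3 of 10 genes is near the share over all probe sets. With the experiment number as a block, 1 gene was lower, Pdk1, and 1 higher, Pkm, at an adjusted p under 0.05. That fit called 11.3% of all probe sets lower and 9.94% higher. Positive and negative differences were equally frequent, 5 and 5. The median log2 difference of the 10 genes was 0.0051, against 0.011 over all tested probe sets. All log2 differences are subconfluent minus confluent on the log2(signal + 50) scale, and where a gene had several probe sets the brightest stood for it. The p-values measure the spread between these samples, since nothing beyond the experiment numbers says how the cultures were made.

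**Figure D1:**
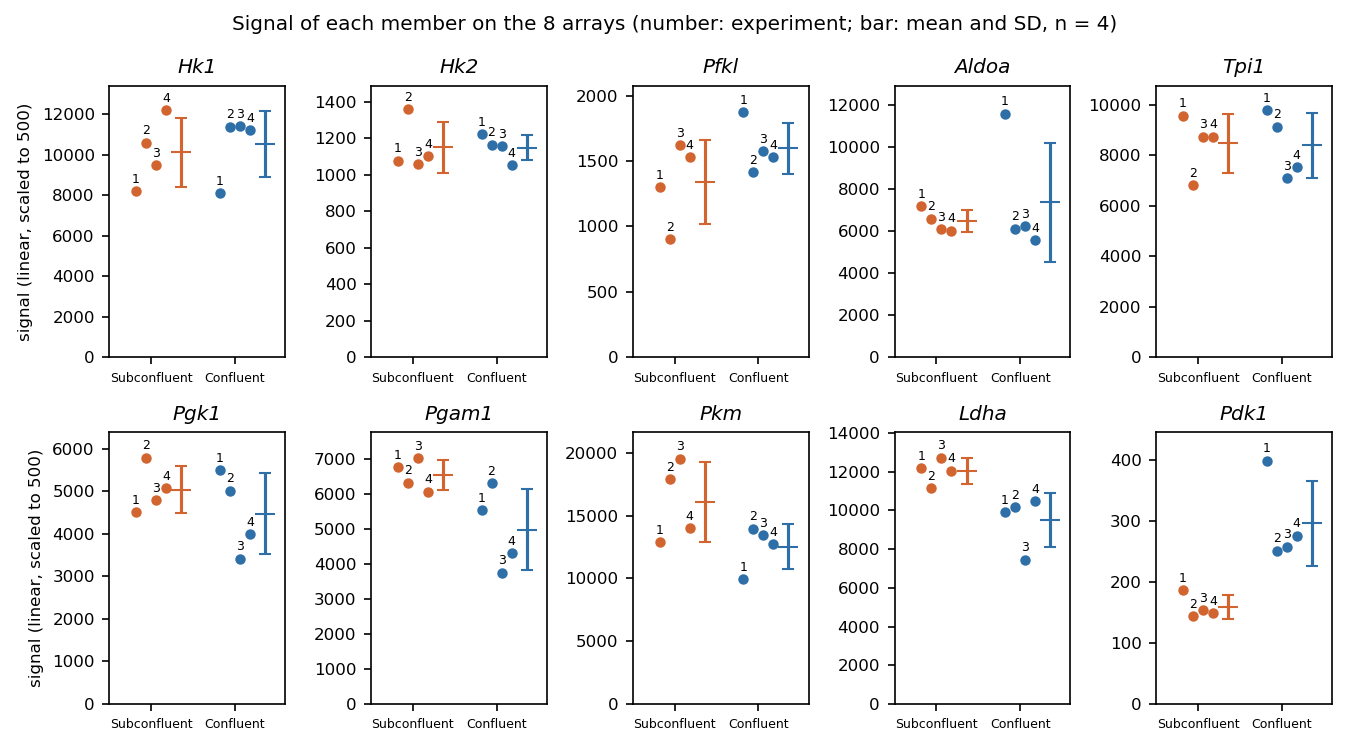
Signal of each of the 10 genes (linear scale, from 0) on the 4 subconfluent arrays, left, and the 4 confluent arrays, right, numbered by experiment, with the mean and SD (n = 4). The Pdk1 points of subconfluent samples, 144.1 to 186.8, all lie below those of confluent samples, 251.4 to 398.9, and the Ldha points of subconfluent samples, 11154 to 12726, all lie above those of confluent samples, 7460 to 10478.

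Pdk1, the kinase that switches off pyruvate dehydrogenase, had signals of 186.8, 144.1, 154.2 and 148.2 in subconfluent samples 1 to 4, against 398.9, 251.4, 257.6 and 275.6 in confluent samples 1 to 4. Every subconfluent value lay below every confluent one, and the confluent sample of experiment 1 stood above the other confluent samples. The means were 158 ± 19.4 in subconfluent and 296 ± 69.4 in confluent cells (SD, n = 4 each), so the mean signal was 1.87 times as high in confluent cells. The log2 difference was -0.72 ± 0.19 (SE, adjusted p = 0.0492), with a 95% interval of -1.14 to -0.29. It was negative in each of the 4 experiments, from -0.92 in experiment 1 to -0.59 in experiment 3. Among all tested probe sets, 8.54% were without overlap and lower, and 22.1% were lower in all 4 experiments. With a mean signal of 227 over the 8 arrays, Pdk1 lay just above the minimum of 200 for testing, and it was the dimmest of the tested members. Every subconfluent signal was below 200, so Pdk1 entered the test only through the confluent samples, where it is high. With no minimum signal the adjusted p was 0.101 and the call was lost.

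The fall of Pdk1 lay at the edge of the threshold. Leaving out any of 7 arrays ended the call, each array except confluent replicate 2, with adjusted p from 0.0742 to 0.111, while the difference stayed between -0.78 and -0.58. The same 7 fits called 18 to 90 of all probe sets higher and 80 to 164 lower, against 165 and 244 with all arrays. Without confluent replicate 2 the counts were 342 and 345. With the experiment number as a block the adjusted p was 0.0188. With chip lot as a fixed block the difference was -0.75 (adjusted p = 0.0662). Lot B held only confluent samples 2 and 4, and lot D only subconfluent sample 2. That fit therefore compared the groups within lots A and C alone. The difference was -0.92 between the single arrays of each group in lot A, which allow no test. Between 2 subconfluent arrays and 1 confluent array of lot C it was -0.61 (adjusted p = 0.382). On the same arrays the summed fibroblast and pericyte markers, mostly Col1a1, Col1a2 and Dcn, were lower in every subconfluent sample than in any confluent one. Of 14 proliferation markers 13 were tested. Of these 2 rose (Birc5 and Cdc20, named after their values were seen), or 8 with the experiment number as a block. The 14 summed to between 33462 and 38007 in subconfluent and between 10499 and 29294 in confluent samples. The part of either set of markers in the fall of Pdk1 was not tested.

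**Figure D2:**
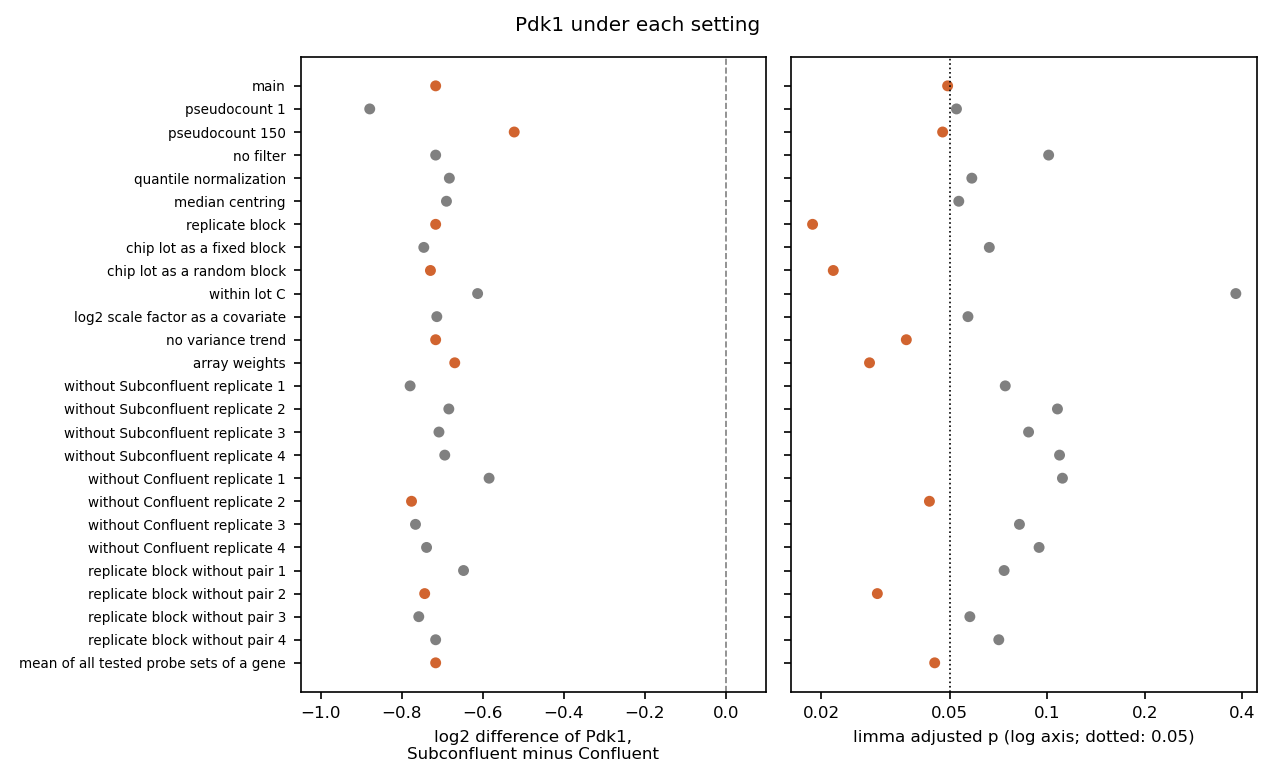
Log2 difference of Pdk1, subconfluent minus confluent (left), and its limma adjusted p on a log axis (right), under the setting used here, called main, and each alternative with a test. Orange points have an adjusted p under 0.05. All points on the left lie between -0.88 and -0.52, while the points on the right fall on both sides of 0.05.

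At the entry of the pathway, neither hexokinase transcript differed detectably. Hk1, the hexokinase found in most tissues, had signals of 8210, 10597, 9489 and 12198 in subconfluent samples, against 8114, 11394, 11425 and 11213 in confluent samples. The groups overlapped, and experiment 1 gave the lowest value in both. Its log2 difference was -0.06, with a 95% interval of -0.43 to 0.31 (adjusted p = 0.876). Hk2, the inducible hexokinase of muscle, fat and growing cells, had 1077, 1358, 1058 and 1103 in subconfluent samples, against 1221, 1165, 1155 and 1052 in confluent samples. These values overlapped as well, and the difference was -0.0043, with an interval of -0.32 to 0.31 (adjusted p = 0.990). The other Hk2 probe set read 2.10 to 24.7 in subconfluent and 3.50 to 28.5 in confluent samples, below the minimum for testing.

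The balance of the hexokinase transcripts was compared within each array, where scaling cancels. The log2 signal of Hk2 minus that of Hk1 averaged -3.08 ± 0.24 in subconfluent and -3.13 ± 0.30 in confluent samples (SD, n = 4 each). The difference of 0.054 did not pass an exact two-sided permutation test over the 70 splits of the arrays (p = 0.83), whose smallest possible p is 0.0286. The splits did not keep the samples of the same experiment number paired. The value within an array depends on how each probe set binds and is no ratio of transcripts.

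Pfkl, the liver-type phosphofructokinase of the committing step, had signals of 1302, 903.5, 1620 and 1532 in subconfluent samples, against 1871, 1413, 1574 and 1527 in confluent samples. Subconfluent samples 1 and 2 lay below every confluent sample, and samples 3 and 4 lay within the confluent range. Its log2 difference was -0.27, with an interval of -0.70 to 0.16 (adjusted p = 0.428). By experiment the differences were -0.51, -0.62, 0.04 and 0.0041, so 2 experiments gave nearly all of the mean difference.

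Aldoa, the aldolase that cleaves the phosphorylated hexose, had 7218, 6600, 6119 and 6036 in subconfluent samples, against 11616, 6138, 6238 and 5582 in confluent samples. The confluent sample of experiment 1 was far above all others. The difference was -0.12, with an interval of -0.60 to 0.35 (adjusted p = 0.776), and without that array it was 0.11. The dimmer Aldoa probe set gave -0.0017 (adjusted p = 0.997). The names of both probe sets carry the suffix f, by which the maker flags probes that other members of a family may also bind.

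Tpi1, the isomerase that joins both triose products into a single stream, had 9567, 6821, 8735 and 8737 in subconfluent samples, against 9792, 9132, 7097 and 7537 in confluent samples. The ranges nearly coincided, and the difference was 0.014, with an interval of -0.34 to 0.36 (adjusted p = 0.970). Pgk1, the kinase of the earlier ATP-forming step, had 4502, 5787, 4790 and 5074 in subconfluent samples, against 5490, 5009, 3411 and 3987 in confluent samples. Its difference of 0.19 had an interval of -0.20 to 0.57 (adjusted p = 0.554). It was positive in experiments 2, 3 and 4 and -0.28 in experiment 1.

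The differences of Pgam1, Pkm and Ldha were positive, and none of these genes passed the test over all probe sets. Pgam1, the mutase that moves the phosphate of phosphoglycerate, had 6754, 6314, 7007 and 6059 in subconfluent samples, against 5523, 6298, 3743 and 4310 in confluent samples. In subconfluent cells 3 of 4 samples lay above every confluent sample. The log2 difference was 0.42, with an interval of 0.034 to 0.80 (adjusted p = 0.159), and ranged by experiment from 0.0035 in experiment 2 to 0.90 in experiment 3.

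Pkm, the pyruvate kinase whose splice forms differ between adult and growing tissues, had 12877, 17937, 19549 and 14013 in subconfluent samples, against 9968, 13976, 13446 and 12723 in confluent samples. Here too 3 of 4 subconfluent samples lay above every confluent one. The brighter probe set differed by 0.35, with an interval of -0.02 to 0.73 (adjusted p = 0.220), and by 0.14 to 0.54 in the single experiments. The dimmer Pkm probe set, which carries the suffix f, had 7029, 7310, 8957 and 7682 in subconfluent samples, against 5503, 5697, 6950 and 4181 in confluent samples. These groups did not overlap, and the difference was 0.49, with an interval of 0.11 to 0.86 (adjusted p = 0.101). With the experiment number as a block both Pkm probe sets passed (adjusted p = 0.0370 for the brighter and 0.0260 for the dimmer), in a fit that called 9.94% of all probe sets higher, 11.3% lower and 21.2% in either direction. The annotation does not say which splice form either probe set reads.

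Ldha, the lactate dehydrogenase subunit that favours lactate formation, had 12192, 11154, 12726 and 12065 in subconfluent samples, against 9911, 10170, 7460 and 10478 in confluent samples. The groups did not overlap, as in 8.34% of all tested probe sets in this direction. The mean was 12034 ± 653 in subconfluent and 9505 ± 1383 in confluent cells (SD, n = 4 each). The log2 difference of 0.35 had an interval of 0.038 to 0.66 and did not pass (adjusted p = 0.147, or 0.0779 with the experiment number as a block). It was positive in all 4 experiments, from 0.13 to 0.77. Of the 10 genes, Ldha, Pgam1 and Pkm were higher in all 4 experiments, against 20.7% of all tested probe sets.

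**Figure D3:**
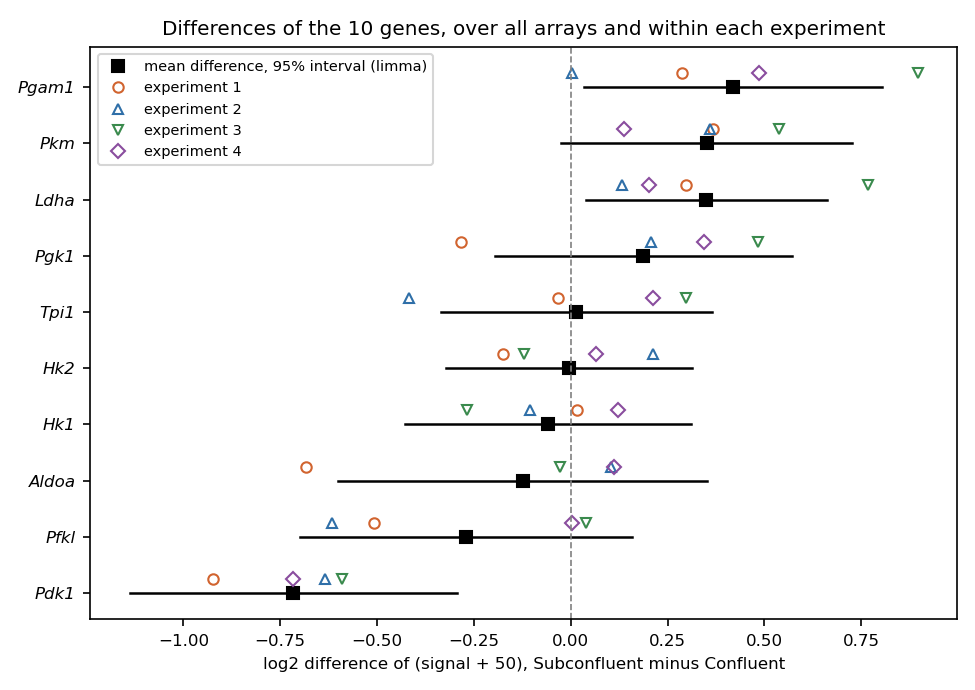
Log2 difference, subconfluent minus confluent, of each of the 10 genes. Squares and lines give the mean difference and its 95% interval from limma, and open symbols give the difference within each experiment. Pdk1 lies left of 0 and Ldha, Pgam1 and Pkm lie right of 0 in every experiment, while the other genes lie on both sides.

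The level averaged over the genes differed more between single samples than between the groups. Averaged over the 10 genes and centred on each gene's mean, the log2 level was -0.02, -0.03, 0.06 and 0.02 in subconfluent samples 1 to 4, against 0.15, 0.05, -0.15 and -0.08 in confluent samples 1 to 4. The spread among confluent samples was the wider, and the group means differed by 0.015. Across the 8 arrays the 5 other genes whose level ran most alike this average were Cyp1b1 (Pearson r = 0.97), Fam118b (0.87), Rbm4b (0.87), Zfp292 (0.84) and Ndrg1 (0.83). They were the highest of 4660 genes compared on arrays that share their scaling, so these values are a description only.

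Of the remaining glycolytic enzymes and regulators 6 of 14 on the array were bright enough to be tested, and 0 passed in limma's test (2 at an unadjusted p under 0.05). Ldhb, the lactate dehydrogenase subunit of heart and other oxidative tissues, was the nearest. It had 216.2, 294.3, 172.8 and 164.3 in subconfluent samples, against 457.9, 295.9, 299.2 and 371.4 in confluent samples, without overlap. Among all tested probe sets 8.54% were without overlap and lower. In experiment 2 the Ldhb values nearly met, with a difference of -0.0067. The Ldhb difference over all arrays was -0.64 (adjusted p = 0.0857, or 0.0483 with the experiment number as a block), opposite in sign to that of Ldha. Eno2, an enolase best known from neurons, was -0.52 (adjusted p = 0.175). Gapdh is given only from its control probe sets, which were not tested. The 3 prime control probe set had 27832 ± 4539 in subconfluent and 26965 ± 3180 in confluent cells (SD, n = 4 each), and the groups overlapped.

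Of 3 tested glucose and lactate transporter genes 0 passed (0 at an unadjusted p under 0.05). The main glucose transporter Slc2a1 was 0.14 (adjusted p = 0.696) and Slc2a8 was -0.30 (adjusted p = 0.321). Of 6 tested genes of pyruvate dehydrogenase and its surroundings, Pcx passed, which encodes pyruvate carboxylase, the enzyme that turns pyruvate into oxaloacetate. Pcx had signals of 59.3, 42.8, 195.1 and 109.0 in subconfluent samples, against 437.9, 243.9, 365.2 and 286.9 in confluent samples. Its log2 difference was -1.42 (adjusted p = 0.0272). Every subconfluent signal was below 200, so Pcx too entered the test only through the confluent samples, and with no minimum signal the call was lost (adjusted p = 0.0509). The subunit genes Pdha1, Pdhb, Dlat and Dld had differences from -0.17 to 0.14, and the sister kinase Pdk3 was -0.33 (adjusted p = 0.294). These 5 genes were named after their values were seen.

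Of 17 tested genes on the tricarboxylic acid cycle list 1 fell, Idh1. Idh1 encodes the cytosolic isocitrate dehydrogenase, which is not an enzyme of the mitochondrial cycle. It had 349 ± 47.0 in subconfluent and 715 ± 203 in confluent cells (SD, n = 4 each), a log2 difference of -0.91 (adjusted p = 0.0279). That call was lost with chip lot as a fixed block, where only lots A and C compare the groups (-0.80, adjusted p = 0.0670). It was also lost with no minimum signal (adjusted p = 0.0526). The list's median was 0.0040. With the experiment number as a block Idh2 (-0.55, adjusted p = 0.0231) and Sdhc (-0.53, adjusted p = 0.0289) passed as well. Of 7 tested pentose phosphate genes 1 rose, Prps1, which makes the ribose donor for nucleotides. It had 1459 ± 160 in subconfluent and 830 ± 184 in confluent cells (SD, n = 4 each), a difference of 0.80 (adjusted p = 0.0293). The list's median was 0.26. With the experiment number as a block H6pd passed as well (-0.47, adjusted p = 0.0231). Idh2, Sdhc and H6pd are named after their values were seen. Of 5 tested genes of glycogen and hexose interconversion 0 passed (0 at an unadjusted p under 0.05). Gpd2, the mitochondrial glycerol phosphate dehydrogenase, was 0.62 (adjusted p = 0.203, or 0.0177 with the experiment number as a block), and Pgm1, a phosphoglucomutase, was -0.46 (adjusted p = 0.269). The Gpd2 probe set carries the suffix f, as those of Aldoa do.

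Hypoxia-responsive genes outside glycolysis did not pass, 0 of 16 tested (4 at an unadjusted p under 0.05, near the 25.9% over all tested probe sets), with a median of -0.03. Kdm3a, a histone demethylase induced by HIF1, was -0.47 (adjusted p = 0.117), and Tfrc, the transferrin receptor gene, was 0.80 (adjusted p = 0.129, or 0.0058 with the experiment number as a block). Hif1a, the oxygen-sensitive subunit of HIF1, named after its value was seen, was -0.60 and negative in all 4 experiments (adjusted p = 0.188, or 0.0102 with the experiment number as a block). The Hif1a probe set also carries the suffix f. Of 5 tested genes of the MYC and MAX network 1 rose and 1 fell. Myc itself had 1245 ± 307 in subconfluent and 647 ± 151 in confluent cells (SD, n = 4 each), a difference of 0.89 (adjusted p = 0.0324). That call was lost with chip lot as a fixed block, where only lots A and C compare the groups (0.73, adjusted p = 0.0718). It was also lost with no minimum signal (adjusted p = 0.0550). Mxd4, a MAX partner that opposes MYC, had 199 ± 29.9 in subconfluent and 763 ± 72.2 in confluent cells (SD, n = 4 each). It fell by 1.71 on the log2 scale (adjusted p = 0.000555). The subconfluent mean lay just below 200, so Mxd4 too entered the test only through the confluent samples.

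Over these 8 lists 2 of 65 tested genes rose and 3 fell, a share near the 6.81% of all tested probe sets called in either direction. Among the called genes, Mxd4 passed whichever array was left out. The calls of Pcx, Idh1, Prps1 and Myc ended without 6, 5, 7 and 6 of the 8 arrays. Fits without a single array also called fewer of all probe sets, except that without confluent replicate 2. The fibroblast, pericyte and proliferation markers given beside Pdk1 moved between the same groups, and their part in these differences was not tested.

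**Figure D4:**
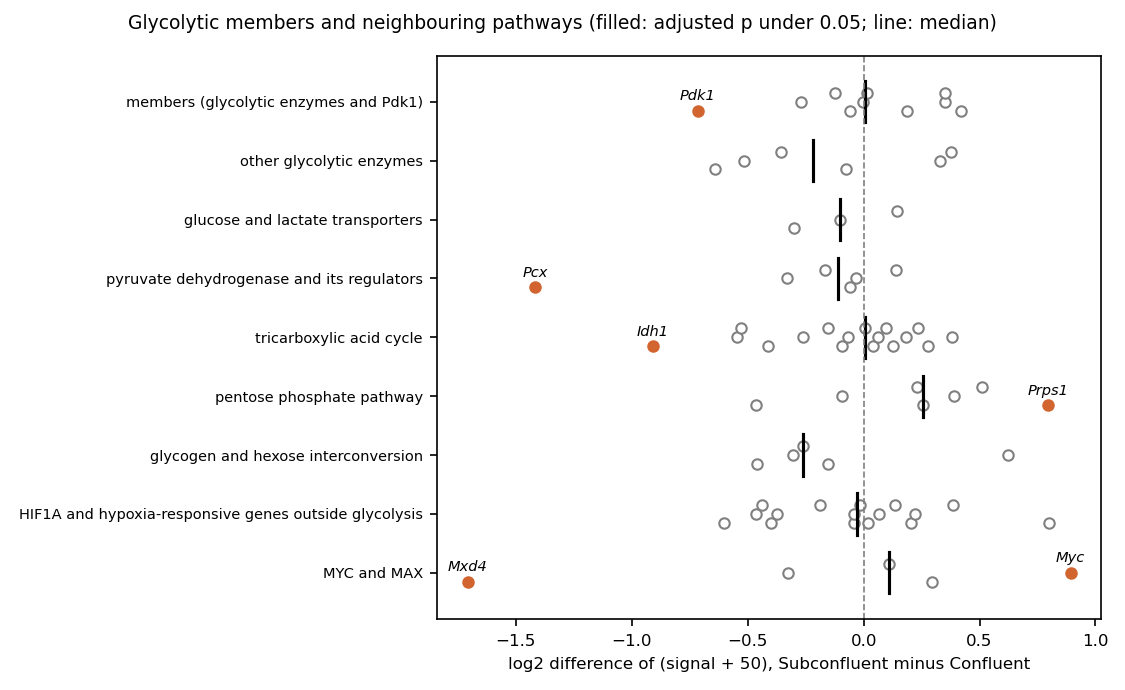
Log2 difference, subconfluent minus confluent, of every tested gene (circles) of the 10 genes described and of 8 neighbouring lists, with the list's median as a line. Filled circles passed at an adjusted p under 0.05. Pdk1, Pcx and Idh1 lie on the negative side, Prps1 on the positive side, and Myc and Mxd4 on opposite sides.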

How the data were processed

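RNA of 8 samples was measured on 1 single-colour Affymetrix mouse array each. Per the labels, the authors computed the deposited signal values, which are linear, with Affymetrix's Statistical algorithm and brought each array to a target of 500. No source used here names the software version. Each array's mean after trimming 2% at either end was 500, so no further normalization was applied. Scanner images were not analysed here. Gene symbols came from the array's annotation: 10855 probe sets had 1 symbol, 396 several and 1237 none, and gene identifiers looked up in RefSeq (GRCm38.p6) changed 0 symbols. Promoter sequences are RefSeq's, and all 10 genes were matched.

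The 66 control probe sets were left out of the fit, and of the others the 6007 whose signal averaged 200 or more entered the test as log2(signal + 50), a scale that understates folds of dim genes. All 10 genes had a tested probe set (12 of 13 probe sets). The groups were compared in limma 3.58.1 under R 4.3.3 (variance trend, no block), two-sided, with Benjamini-Hochberg adjustment over all tested probe sets. Chip lots, of which there were 4, are those the labels name. Only lots A and C held samples of both groups. The number of arrays limits the precision. The calculation was tested on simulated data.

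The same-numbered samples deviated together (correlations of 0.486, 0.357, 0.516 and 0.348 across probe sets, at most 0.068 between different numbers). A fit with the experiment number as a block was therefore run beside the main one. The main fit and the permutation test of Hk2 minus Hk1 did not use this pairing. The members, lists and alternatives were chosen with earlier results of these data known. Every member is named. Of each neighbouring list up to 4 genes that passed are named, or up to 2 with the smallest p where none passed, with the 5 genes most like the members' mean and up to 3 defining markers of a cell type. The lists other than the members were glycolysis, transporters, pyruvate dehydrogenase, tricarboxylic acid cycle, pentose phosphate, glycogen and hexoses, hypoxia, and MYC and MAX, with markers of endothelial, fibroblast and pericyte, smooth muscle, macrophage, lymphocyte, muscle, red blood, and epithelial cells and of proliferation. Versions of other tools were Python 3.11.15, pandas 2.3.3, numpy 2.4.6, scipy 1.17.1 and matplotlib 3.10.9.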

Additional observations from a re-analysis of the deposited data

Results flagged for a closer look

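In 4 of 58 groups of 4 values looked at, the highest or lowest value lay further from the others than Dixon's 95% limit for the gap as a share of the range. Chance alone gives about 1 in 20.

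Confluent replicate 1 was such a value in 3 of the genes. Its Pdk1 signal was 398.9, against 251.4 to 275.6 in the other confluent samples (gap 0.836 of the range). Its Aldoa signal was 11616, against 5582 to 6238 (0.891), and its Hk1 signal was 8114, against 11213 to 11425 (0.936). In Hk2, subconfluent replicate 2 had 1358, against 1058 to 1103 in the other subconfluent samples (0.849).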

How the results depend on the processing

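Over 27 alternatives in all, Pdk1 stayed negative in each in which it was tested. It was called in 8 of the 25 alternatives with a test and lost the call in 17. The count of genes lower, 1 here, was 0 with a pseudocount of 1, no filter, a minimum of 500 (where Pdk1 is not tested), quantile normalization, median centring, chip lot as a fixed block, the 3 arrays of lot C, the scale factor as a covariate, and the replicate block without pair 1, 3 or 4, and 0 to 1 without single arrays. Pdk1's adjusted p was 0.0524 with a pseudocount of 1, 0.101 with no filter, 0.0585 with quantile normalization and 0.0533 with median centring. The count higher, 0 here and 0 without any single array, was 1 with the replicate block (Pkm) and 1 with the replicate block without pair 2 (Pgam1). The median difference was -0.10 for the arrays of lot A, 0.15 for those of lot C, and -0.028 to 0.10 without single arrays. In the neighbouring lists, 2 higher and 3 lower here, 4 were higher and 8 lower with the replicate block, 5 and 7 without pair 2, 5 lower without pair 4, 6 lower with chip lot as a random block, 1 and 1 with no filter, 1 lower with a minimum of 500, and 0 and 0 within lot C. Without single arrays they were 0 to 2 higher and 1 to 3 lower. Over all probe sets 165 were higher and 244 lower, against 597 and 679 with the replicate block (223 to 652 and 353 to 618 with a pair left out), 453 and 485 with chip lot as a random block, 368 and 315 as a fixed block, 311 and 331 with array weights, 72 and 136 with no filter, 2 and 3 within lot C, and 18 to 342 and 80 to 345 without single arrays.

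Differences near 0 changed sign without being called. Hk1 was 0.011 without pair 3, and -0.18 to 0.037 without single arrays. Hk2 was 0.022 with median centring, 0.052 without pair 1, 0.035 without pair 3, and -0.084 to 0.031 without single arrays. Tpi1 was -0.023 with quantile normalization, -0.080 without pair 3, -0.051 without pair 4, and -0.061 to 0.11 without single arrays. Aldoa was 0.063 without pair 1, and -0.24 to 0.11 without single arrays. Within lot C Pfkl was 0.0011 and Pgm1 0.049. Hk2 minus Hk1 was -0.0010 (exact permutation p = 1) with both Hk2 probe sets averaged, and -0.020 to 0.20 without single arrays. The causes were not tested. The dim Pdk1 signal and 4 arrays a group limit what can be called.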
